A study of Mus musculus with 24 samples.

Results

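Live cells of the ileum, the last part of the small intestine, were sorted by CD45, the surface phosphatase that nearly all leukocytes carry, and RNA of each fraction was sequenced. The 6 CD45+ libraries of *Hoil1*+/+ mice were compared with the 6 CD45- libraries of *Hoil1*+/+ mice, 12 of the 24 libraries in the series, and were chosen by their labels for genotype and cell type. All 12 came from C57BL/6 mice (C57BL/6J by the study's methods) of 9.0 to 10.3 weeks with the genotype *Hoil1*+/+*Il4raflox/flox*, in which loxP sites flank part of *Il4ra*. In each fraction 3 libraries came from mice without Cre (called *Il4ra* ff here) and 3 from mice that also carried *Vil1cre* (called *Il4ra* dIEC), where the villin promoter drives Cre in intestinal epithelial cells and *Il4ra* is deleted there. No mouse of the comparison was free of the loxP sites. Peyer's patches had been removed, and 50% of the cells washed off as epithelium had been put back with the collagenase-digested lamina propria before the sort. Both fractions could therefore hold cells of the epithelium and of the tissue below it. The labels do not tie CD45+ to CD45- libraries of the same mouse. The ages show that the mice were not all shared, since the *Il4ra* ff libraries came from mice of 9.1, 9.9 and 9.0 weeks in the CD45+ fraction and of 10.3, 9.0 and 9.1 weeks in the CD45- fraction. The *Il4ra* dIEC libraries came from mice of 9.7, 9.7 and 9.0 weeks in both fractions, and whether these were the same mice is not given.

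The wall of the ileum is a meeting place of lineages. Leukocytes lie between the epithelial cells, where most are T cells, and in the lamina propria, where IgA-secreting plasma cells, macrophages, dendritic cells, T cells and innate lymphoid cells are found. CD45- cells include absorptive enterocytes, mucus-secreting goblet cells, antimicrobial Paneth cells, hormone-secreting enteroendocrine cells, chemosensory tuft cells and the crypt stem cells that renew them, and below the epithelium endothelial cells, fibroblasts, smooth muscle, pericytes and glia. Mature red blood cells carry no CD45 either. The fractions signal to each other, for example through epithelial chemokines that draw lymphocytes in and through leukocyte cytokines that act on receptors of the epithelium. HOIL1, encoded by *Rbck1*, is a subunit of the linear ubiquitin chain assembly complex (LUBAC), which passes on signals from receptors of the TNF family.

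Depth on genes was 25.2 to 76.8 M counts (M stands for 1e6) in the CD45+ libraries (median 59.1 M) and 6.97 to 68.3 M in the CD45- libraries (median 14.7 M). A level of 3 counts, taken as the smallest that the depth can show, was 0.0386 to 0.111 CPM (counts per M counts of the library, after TMM scaling) in CD45+ and 0.0351 to 0.375 CPM in CD45- libraries. Low genes could thus be seen less well in most CD45- libraries. Immunoglobulin genes took 12.1 to 43.6% of CD45+ counts (median 19.6%) and 0.00719 to 0.647% of CD45- counts. Mitochondrial genes took 1.66 to 5.14% of CD45+ and 6.98 to 20.1% of CD45- counts. On log2 CPM the first principal component held 66.4% of the variance and divided the fractions, and the second held 7.54%. The rank correlation of gene levels between libraries was 0.904 to 0.965 within CD45+, 0.868 to 0.9746 within CD45- and 0.551 to 0.619 across the fractions, over genes, which are not replicates. *Xist*, transcribed from the inactive X chromosome of females, was at 168 and 227 CPM in the CD45+ and 142 and 222 CPM in the CD45- libraries of *Il4ra* dIEC replicates 1 and 2, and under 1 CPM in the other 8. Age and *Xist* thus match between the fractions in *Il4ra* dIEC replicates, and age does not in *Il4ra* ff. Replicate numbers follow the order of deposition and were not used to pair libraries.

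The sort was seen in its own gene. *Ptprc* (ENSMUSG00000026395.16, chromosome 1, 138062861 to 138175708, minus strand of GRCm38) was at 344, 663 and 407 CPM in CD45+ *Il4ra* ff and at 695, 786 and 569 CPM in CD45+ *Il4ra* dIEC libraries. In CD45- libraries it was at 2.44, 0 and 0 CPM in *Il4ra* ff and at 1.65, 3.25 and 0.246 CPM in *Il4ra* dIEC. Every CD45+ library lay above every CD45- library, which describes the gate and is no finding. *Epcam* (ENSMUSG00000045394.8, chromosome 17, 87635979 to 87651129, plus strand), the adhesion molecule of epithelial cells, was not part of the gate. It was at 234 to 1197 CPM (median 558) in CD45- libraries and at 24.7 to 60.6 CPM (median 42.2) in CD45+ libraries, again without overlap. The mean of log2(CPM + 0.1) with total-count scaling differed by 9.56 for *Ptprc* and by -4.13 for *Epcam* (CD45+ minus CD45-, two-sided exact permutation p = 0.00216 for each, the smallest that the 924 splits of 6 against 6 can give). *Vil1* (ENSMUSG00000026175.12, chromosome 1, 74409376 to 74435559, plus strand), whose promoter drives the Cre, was at 174 to 1408 CPM (median 463) in CD45- and 2.18 to 39.6 CPM (median 17.99) in CD45+ libraries. The gene lists used below give the cell types beyond these checks.

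The fractions differed in many of the gene classes examined. Few genes of cell division, of the immediate-early and heat-shock response or of TNF receptors and cell death were found to differ. Of 16267 genes tested with edgeR's quasi-likelihood test, with *Il4ra* genotype as covariate and Benjamini-Hochberg adjustment over all tested genes, 3631 were higher in CD45+ (22.3%) and 3858 higher in CD45- (23.7%) at an adjusted p under 0.05. All log2 fold changes below are CD45+ minus CD45- from this fit, all adjusted p are from its quasi-likelihood test, and "called" means past that threshold. Among the 7489 called genes 3332 differed by 16-fold or more in the fit and 1504 by under 2-fold, and the median log2 fold change of all tested genes was 0.06. All 6 CD45+ libraries lay above all 6 CD45- libraries for 2351 tested genes (14.5%), and the reverse held for 2590 (15.9%). No count was found in any CD45- library for 590 tested genes, or in any CD45+ library for 465. These entered the test through the other fraction alone, and 589 and 465 of them were called. The call of such a gene, in the lists and families below too, is therefore no finding. In a gene of this kind the fold is given as a lower bound, from 3 counts over the 6 libraries at 0. The division of the calls depended on scaling. CD45+ genes were 48.5% of the calls with TMM scaling but 31.7% (2101 of CD45+ against 4525 of CD45-) with total counts alone, which put the median log2 fold change of all genes at -0.33. A gene named below as called higher in CD45+ that was not called under that scaling is given with its value there. Where a call was lost in some of the 12 fits that left out 1 library, the range given is over all 12. In bulk RNA, fewer cells of a type and less RNA per cell cannot be told apart.

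**Figure D1:**
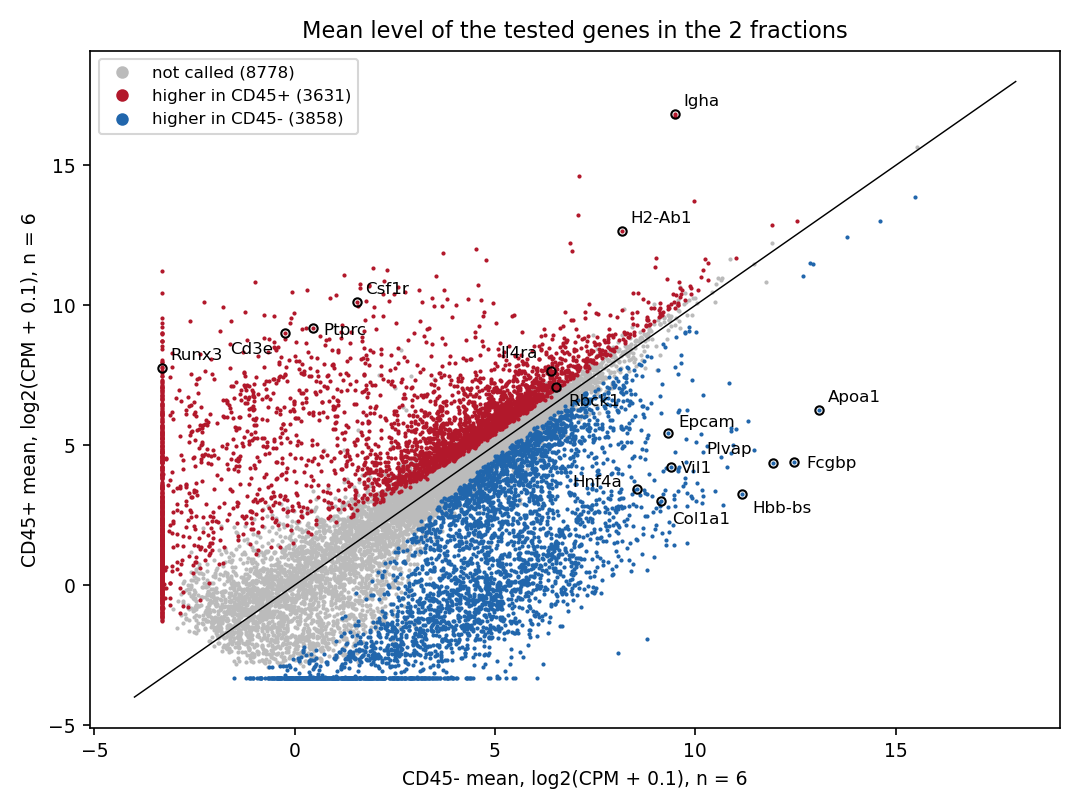
Mean level of each of the 16267 tested genes in the 6 CD45- (horizontal) and 6 CD45+ (vertical) libraries, as log2(CPM + 0.1). Red points are the 3631 genes called higher in CD45+, blue points the 3858 called higher in CD45-, grey points the rest, and the line marks equal means. The columns of points at the left and bottom edges are genes at 0 in a whole fraction, and *Igha*, *Ptprc* and *Csf1r* lie far above the line, *Apoa1*, *Fcgbp* and *Plvap* far below it.

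The 10 genes with the smallest p in each direction were taken among those with a mean level of at least 50 CPM and no overlap between the fractions. Among those of CD45+, *Cyth4*, an exchange factor for ARF GTPases, was at 150.4 to 217 CPM (median 177) against 1.001 to 3.05 CPM, median 2.62 (log2 fold change 6.24 ± 0.27, adjusted p = 2.29e-07). *Arhgdib*, a regulator of small GTPases in blood cells, was at 407 to 509 CPM (median 465) against 8.01 to 22.4 CPM, median 10.8 (log2 fold change 5.19 ± 0.25, adjusted p = 3.17e-07). *Lsp1*, an actin-binding protein of leukocytes, was at 379.9 to 445 CPM (median 399.6) against 4.48 to 13.2 CPM, median 10.3 (log2 fold change 5.48 ± 0.28, adjusted p = 3.92e-07). A small p and no overlap favor genes with a narrow range, so the range of these genes is no finding. *Apbb1ip*, which links RAP1 to integrin activation, the GTPase-activating genes *Sh3bp1* and *Arhgap4*, the RAB35 exchange factor *Dennd1c*, the membrane protein *Ms4a6b*, the MD-1 gene *Ly86* and the pseudogene *Gm8221* made up the first 10. *Sh3bp1* had the smallest difference of the 10 (log2 fold change 4.72 ± 0.23, adjusted p = 3.17e-07), and *Ly86* was at 95.6 to 329.8 CPM (median 156) against 0 to 0.0973 CPM (median 0). *Gm8221* may share reads with related genes and is uncertain.

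Among the 10 genes of the CD45- fraction, *Mylk*, the kinase of myosin light chain, was at 215 to 406 CPM (median 266) against 5.499 to 9.93 CPM, median 9.04 (log2 fold change -5.07 ± 0.20, adjusted p = 2.25e-07). *Aqp1*, the water channel of endothelium and red cells, was at 179.6 to 370.2 CPM (median 246) against 1.37 to 2.82 CPM, median 2.25 (log2 fold change -6.89 ± 0.30, adjusted p = 2.29e-07). *Myl9* and *Tpm1*, of the contractile apparatus, were at medians of 399 and 383 CPM in CD45- and of 4.15 and 26.8 CPM in CD45+ libraries. These genes are used by more than 1 of the CD45- lineages, as are the protocadherin *Pcdh1*, the tight junction scaffold *Tjp1*, the ephrin *Efnb1* and the stress kinase *Map3k20*. *B3gnt3*, a glycosyltransferase of mucin-type sugars, and the alpha-globin *Hba-a1* completed the set, and log2 fold changes ran from -3.23 to -8.31.

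Marker lists of leukocytes were called almost whole. Of 8 lists, the T cell (13 of 13 tested genes), intraepithelial and cytotoxic lymphocyte (10 of 10), B cell (10 of 10), plasma cell (10 of 10) and macrophage and monocyte lists (12 of 12) had each tested member called higher in CD45+, against 22.3% of all tested genes. The dendritic cell list had 9 of 10, the innate lymphoid list 8 of 10 and the granulocyte and mast cell list 7 of 8 called. Some tested members were at 0 in every CD45- library and entered the test by their CD45+ counts alone. They were 4 T cell, 3 cytotoxic, 4 innate lymphoid, 1 macrophage, 5 dendritic cell and 6 granulocyte and mast cell genes, and their calls are no finding. Median log2 fold changes over the tested members, with genes at 0 in a fraction set at their lower bound, were between 6.06 (innate lymphoid) and 10.54 (cytotoxic). No member of the 8 lists was called higher in CD45-.

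By summed level, plasma cell genes were the highest of the 8 lists in each CD45+ library, at 50444 to 343479 CPM (median 93271). *Igha*, the constant region of IgA, was at 37676 to 293350.000 CPM (median 74631) in CD45+ and 26.8 to 2216 CPM (median 448) in CD45- libraries (log2 fold change 7.18 ± 1.14, adjusted p = 0.000412), and *Jchain*, which joins IgA into dimers, at 11811 to 46235 CPM (median 17329) against 4.31 to 319 CPM, median 108 (log2 fold change 7.36 ± 1.12, adjusted p = 0.000305). *Xbp1*, a factor of the secretory program that goblet and Paneth cells share, was less divided, at 389 to 1881 CPM (median 592) against 125 to 233 CPM, median 183 (log2 fold change 2.10 ± 0.34, adjusted p = 0.000469). Across the genome 192 of 202 tested immunoglobulin genes were called higher in CD45+ and none in CD45-, beside 22.3% and 23.7% of all tested genes. Of the 202, 83 were at 0 in every CD45- library and entered the test by their CD45+ counts alone. *Igkc* was at 43439.9 to 250762 CPM (median 73482) against 17.02 to 1947 CPM (median 536). Variable segments of high similarity can share reads, so single segments are uncertain.

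Macrophage genes had a summed level of 5146 to 16417 CPM (median 9009) in CD45+ and 25.9 to 95.4 CPM (median 57.04) in CD45- libraries. The cytotoxic list summed higher than the macrophage list in 3 of the 6 CD45+ libraries (*Il4ra* ff replicate 2 and *Il4ra* dIEC replicates 1 and 2) and lower in the other 3. *Lyz2*, the lysozyme of myeloid cells, was at 1142 to 5143 CPM (median 2109) against 0 to 15.2 CPM, median 3.55 (log2 fold change 8.87 ± 1.08, adjusted p = 7.09e-05). *C1qa* and *C1qb*, chains of complement C1q that tissue macrophages make, were at 820.3 to 3161 CPM (median 1419) and 755 to 2224 CPM (median 1212) in CD45+ and at medians of 2.79 and 1.65 CPM in CD45- libraries. The levels of these genes varied less among the CD45+ libraries than those of T cells, a 3.19-fold range for the list against 6.28-fold. Dendritic cell genes had the narrowest range, 1.62-fold. *Itgax* was at 249 to 478 CPM (median 315) against 0 to 2.04 CPM, median 0.492 (log2 fold change 9.20 ± 0.98, adjusted p = 2.64e-05), and *Irf8*, a factor for dendritic cell development, at 268 to 555 CPM (median 338) against 31.2 to 81.8 CPM, median 65.2 (log2 fold change 2.58 ± 0.28, adjusted p = 2.51e-05). *Cd209a* was at 17.5 to 53.9 CPM (median 26.1) and at 0 in every CD45- library, at least 1627-fold higher. *Zbtb46* was the member that missed the threshold, at 7.698 to 14.4 CPM (median 12.8) in CD45+ and 4.64 to 40.6 CPM (median 22.04) in CD45- libraries (log2 fold change -0.94 ± 0.42, adjusted p = 0.0865), and endothelial cells are known to use it too. With total-count scaling it was called higher in CD45- (log2 fold change -1.41).

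T cell and cytotoxic genes ranged widely within the CD45+ fraction. *Cd3e*, of the T cell receptor complex, was at 69.5 to 999 CPM (median 460.1) and in CD45- libraries at 0 to 2.502 CPM, median 0 (log2 fold change 10.55 ± 1.74, adjusted p = 0.0005204). *Cd8a* was at 44.5 to 661 CPM (median 288) and *Cd4* at 175 to 278 CPM (median 210.03), a far narrower range. *Gzma*, *Ccl5* and *Gzmb*, of the granules and chemokines of cytotoxic lymphocytes, were at 142 to 5487 CPM (median 1436), 101 to 3849 CPM (median 1235) and 51.96 to 2192 CPM (median 598). T cell receptor genes were called higher in CD45+ for 49 of 49 tested. Of these, 47 were at 0 in every CD45- library and entered the test by their CD45+ counts alone, so their share is no finding. *Trdc*, the constant gene of the delta chain of gamma-delta T cells, was at 28.1 to 357 CPM (median 145) and *Trac*, of the alpha chain, at 31.1 to 290.5 CPM (median 130.2) against 1.63 to 3.89 CPM (median 2.41). In the innate lymphoid list *Id2* was at 92.98 to 208 CPM (median 128) against 18.9 to 41.7 CPM, median 26.6 (log2 fold change 2.30 ± 0.26, adjusted p = 3.37e-05), and *Il7r* and *Gata3* had medians of 56.5 and 47.1 CPM in CD45+ against 0 and 0.292 CPM in CD45-. *Nmur1* (1.6995 to 5.198 CPM, median 2.46 against 2.66 to 7.003 CPM, median 4.502) was not called, with adjusted p = 0.221.

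B cell genes were low beside plasma cell genes. *Cd79a*, of the B cell receptor, was at 108 to 622 CPM (median 312), *Cd79b* at 98.3 to 217 CPM (median 128) and *Cd22* at 34.1 to 172 CPM (median 63.7) in CD45+ libraries. Among granulocyte and mast cell genes *Mcpt1*, a protease of mucosal mast cells, was at 1118, 662 and 444 CPM in CD45+ *Il4ra* ff and at 97.4, 107 and 111 CPM in CD45+ *Il4ra* dIEC libraries, and at 0 in every CD45- library, at least 23501-fold higher in CD45+. The 3 values of each *Il4ra* genotype did not overlap, which was seen after the values were known and was so for 13.2% of all tested genes in the CD45+ libraries. *S100a9* and *S100a8* of neutrophils were at medians of 35.7 and 23.8 CPM. *Siglecf* of eosinophils was not called, at 1.87 to 12.2 CPM (median 4.89) against 0 to 4.38 CPM, median 1.75 (adjusted p = 0.3496), and *Epx* had no count in the 12 libraries.

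**Figure D2:**
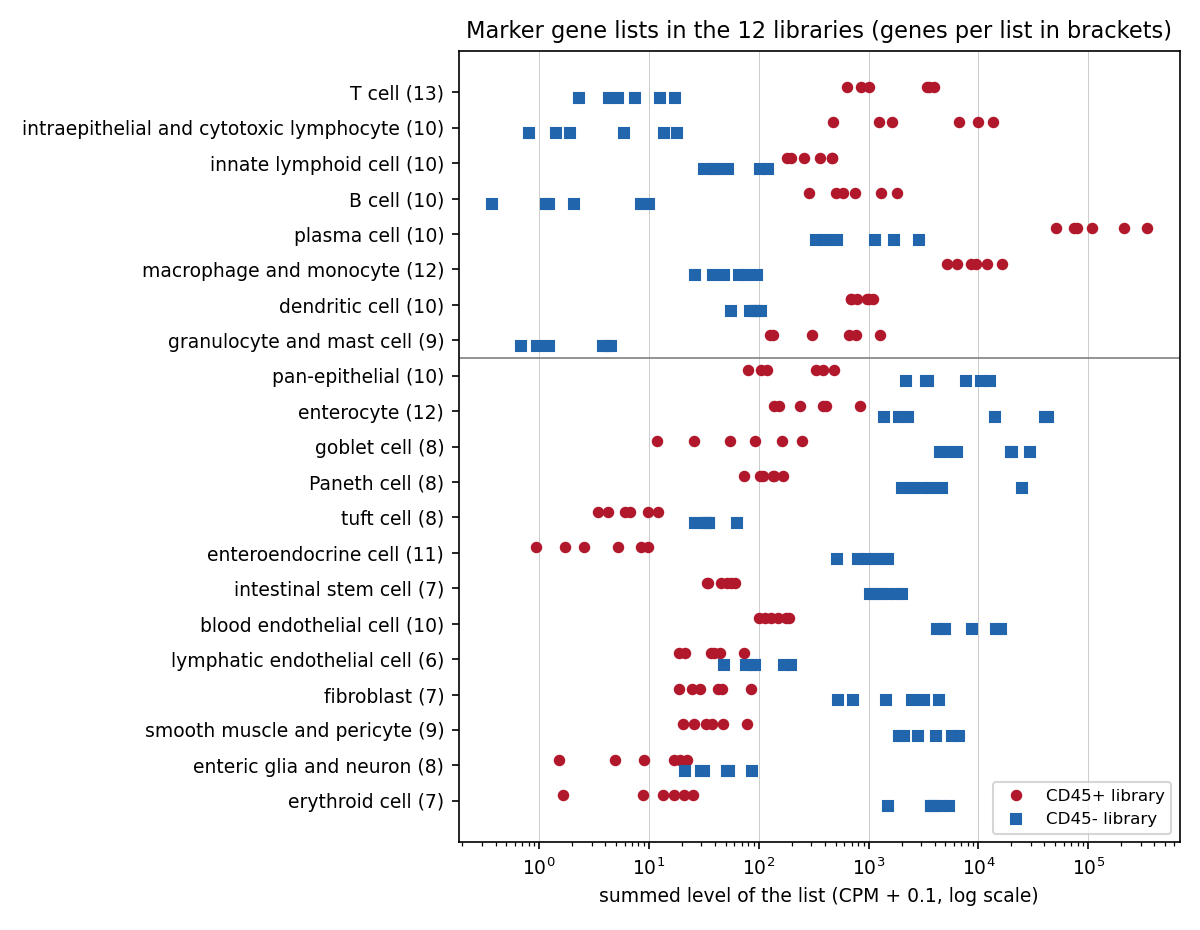
Summed level of each marker list in the 6 CD45+ (red circles) and 6 CD45- (blue squares) libraries, as CPM + 0.1 on a log axis, with the number of genes of the list in brackets. Above the line are the 8 lists of leukocytes, below it the 13 lists of CD45- cells. The fractions do not overlap in 19 of the 21 lists, and meet in the lymphatic endothelial and the enteric glia and neuron lists.

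The CD45- fraction held markers of the epithelium in all its lineages. Of 10 pan-epithelial genes 10 were called higher in CD45- (23.7% over all tested genes), as were 11 of 12 enterocyte genes, 8 of 8 goblet cell genes, 8 of 8 Paneth cell genes, 11 of 11 enteroendocrine genes and 7 of 7 stem cell genes. *Krt8*, a keratin of simple epithelium, was at 505 to 4518 CPM (median 1645) in CD45- and 11.99 to 114 CPM (median 39.9) in CD45+ libraries (log2 fold change -5.41 ± 0.74, adjusted p = 0.0001505), and *Krt19* at 368 to 1810.2 CPM (median 893) against 8.76 to 70.96 CPM, median 29.9 (log2 fold change -4.94 ± 0.65, adjusted p = 0.000120000). Goblet cell genes were the highest by the median of their sums, 13017 CPM. *Fcgbp*, a protein of the mucus, was at 2171 to 12139 CPM (median 4686) against 1.09 to 60.6 CPM, median 11.97 (log2 fold change -8.40 ± 1.04, adjusted p = 7.73e-05), and *Zg16* and *Tff3*, secreted with the mucin, at medians of 2747 and 1519.7 CPM.

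Enterocyte genes had the widest range of any CD45- list, 31.8-fold in their sum. *Apoa1*, an apolipoprotein of absorbed fat, was at 7945, 423 and 786 CPM in CD45- *Il4ra* ff and at 20074, 22855 and 397 CPM in CD45- *Il4ra* dIEC libraries, against 7.33 to 225 CPM (median 60.5) in CD45+ (log2 fold change -6.60 ± 1.33, adjusted p = 0.00189). *Fabp6*, the bile acid carrier that marks the ileum, ran from 2.68 to 7294 CPM and overlapped with CD45+ libraries (log2 fold change -5.51 ± 1.52, adjusted p = 0.0112), and without CD45- *Il4ra* ff replicate 1 it was not called (log2 fold change -4.34). *Apoa4* also overlapped, at 30.98 to 6134 CPM (median 593) against 1.66 to 102 CPM (median 7.63). *Slc10a2*, the bile acid transporter of the same cells, was the member not called (log2 fold change -3.38 ± 1.38, adjusted p = 0.0645), at 0 to 52.4 CPM (median 19.02). Stem cell genes were steadier, with a 1.92-fold range in their sum. *Olfm4* of stem cells was at 785 to 1410.3 CPM (median 985) against 5.27 to 18.7 CPM, median 12.1 (log2 fold change -6.41 ± 0.37, adjusted p = 5.68e-07), *Slc12a2* at 123 to 308 CPM (median 185) and *Axin2*, a target of Wnt signals, at 43.2 to 100.3 CPM (median 61.7). The Paneth genes *Lyz1*, *Defa24* and *Itln1* were at medians of 1025, 1133 and 507 CPM, and the sum of the Paneth list had a 12.4-fold range. Defensin genes are near-identical copies, so reads may be divided among them and each is uncertain.

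Rare epithelial cells were visible at this depth. *Chgb* and *Chga*, granins of enteroendocrine cells, were at 141 to 785 CPM (median 456) and 127 to 442 CPM (median 294), and their CD45+ medians were 0.00644 and 0 CPM. *Gcg*, the precursor of GLP-1, was at 53.5 to 375 CPM (median 91.8). Of 8 tuft cell genes 5 entered the test and 3 were called, *Dclk1* (4.38 to 22.8 CPM, median 10.3 against 0 to 0.257 CPM, median 0), *Trpm5* (6.03 to 14.9 CPM, median 8.91) and *Sh2d6*. *Avil* was not called, at 4.03 to 15.9 CPM (median 7.74) in CD45- and 2.94 to 10.8 CPM (median 5.49) in CD45+ libraries. The summed level of the tuft cell list was 25.99 to 63.6 CPM (median 33.9) in CD45- libraries, the lowest of the epithelial lists.

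Below the epithelium, 10 of 10 blood endothelial, 7 of 7 fibroblast and 9 of 9 smooth muscle and pericyte genes were called higher in CD45- (23.7% over all tested genes). *Plvap*, of the diaphragms of fenestrated capillaries, was at 1882 to 7248 CPM (median 3011) against 7.93 to 32.4 CPM, median 19.4 (log2 fold change -7.57 ± 0.59, adjusted p = 3.51e-06), and *Vwf*, *Eng* and *Pecam1* were at medians of 734, 629 and 641 CPM. *Col1a1*, *Col3a1* and *Dcn* of fibroblasts were at 125 to 1178 CPM (median 537), 174 to 1207 CPM (median 574) and a median of 353 CPM. *Acta2* and *Myh11*, actin and myosin of smooth muscle, were at 510.3 to 2249.8 CPM (median 977) and 249 to 1178 CPM (median 721). Erythroid genes took 6 of 6 tested calls. *Hbb-bs*, a beta-globin, was at 921 to 3162 CPM (median 2340.4) against 0.528 to 16.4 CPM (median 11.4), and *Alas2*, the first enzyme of heme synthesis in red cells, at 43.2 to 193 CPM (median 110.3). Only the summed levels of glia and neurons (21.4 to 86.1 CPM, median 41.04 in CD45-) and lymphatic endothelium (48.4 to 195 CPM, median 89.5) came near those of CD45+ libraries, and 2 of 6 and 3 of 6 tested members were called higher in CD45-. *Uchl1* of neurons was called, while *S100b*, *Sox10*, *Elavl4* and *Ret* were not.

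Members of the lymphatic list went in opposite directions. *Flt4*, the receptor of lymphatic growth factors, was at 22.2 to 156 CPM (median 66.4) against 0 to 2.27 CPM, median 0.688 (log2 fold change -7.72 ± 1.16, adjusted p = 0.000283). *Reln* was at 12.5 to 57.9 CPM (median 20.1) in CD45+ and 0 to 10.2 CPM (median 2.28) in CD45- libraries (log2 fold change 2.76 ± 0.74, adjusted p = 0.00965), and *Lyve1*, which resident macrophages also carry, at 3.502 to 16.97 CPM (median 12.5) against 3.02 to 7.86 CPM, median 4.28 (log2 fold change 1.14 ± 0.43, adjusted p = 0.0466). The call of *Lyve1* was lost in 8 of the 12 fits that left out 1 library, with log2 fold changes of 0.74 to 1.33, and with total-count scaling (0.71). In the epithelial, endothelial, stromal and erythroid lists no other member was called higher in CD45+.

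The libraries within a fraction differed in the mixture of cells that the lists describe, and the differences went with the age on the labels. The labels give no day of sorting, so mice of like age may also have been sorted together. The division between 9.1 and 9.7 weeks was chosen after the values were seen. The 3 CD45+ libraries from mice of 9.7 and 9.9 weeks (*Il4ra* ff replicate 2 and *Il4ra* dIEC replicates 1 and 2) had summed T cell levels of 3587, 3972 and 3414 CPM, and the 3 from mice of 9.0 and 9.1 weeks had 1007, 633 and 862 CPM. Cytotoxic genes summed to 13488, 9919 and 6677 CPM in the older and 1636, 1247 and 471 CPM in the younger mice. The summed innate lymphoid level was higher in the older mice too, and the plasma and dendritic cell sums in the younger, each without overlap. Single members followed unevenly, with no overlap in 11 of 13 T cell, 9 of 10 cytotoxic, 6 of 10 plasma cell, 3 of 10 dendritic cell and 2 of 10 innate lymphoid genes. The 2 were *Gata3* and *Id2*, which T cells also use, while *Il1rl1*, *Klrg1*, *Ncr1* and *Nmur1* overlapped. The sums make 5 of 8 leukocyte lists, where 21.8% of all tested genes had the 3 older CD45+ libraries all above or all below the 3 younger. Mitochondrial genes took 5.14, 4.07 and 4.53% of counts in the older and 2.57, 1.66 and 2.17% in the younger CD45+ libraries, and their part in the division was not tested.

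CD45- libraries showed the same division, with epithelium in place of T cells. Enterocyte genes summed to 14106, 40348 and 43502 CPM in the 3 libraries of mice of 9.7 and 10.3 weeks (*Il4ra* ff replicate 1 and *Il4ra* dIEC replicates 1 and 2) and to 1368, 1896 and 2307 CPM in the 3 of 9.0 and 9.1 weeks. Goblet cell and pan-epithelial genes followed. Blood endothelial genes went the other way, with 4187, 4966 and 4868 CPM against 16059, 8789 and 14392 CPM, as did the sums of fibroblast, stem cell, lymphatic and glial genes. The members without overlap were 10 of 10 pan-epithelial, 10 of 12 enterocyte, 8 of 8 goblet cell, 9 of 10 blood endothelial and 7 of 7 fibroblast genes, but 2 of 7 stem cell, 3 of 6 lymphatic and 2 of 6 glial and neuronal genes. In all, 8 of 13 lists of CD45- cells had no overlap between the ages, against 31.2% of all tested genes. Paneth cell genes did not follow, and CD45- *Il4ra* ff replicate 1 stood apart with a sum of 24769.9 CPM against 1999 to 4698 CPM in the other 5. Mitochondrial genes took 12.3, 20.1 and 15.4% of counts in the older and 6.98, 7.79 and 7.18% in the younger CD45- libraries. The older CD45- libraries were also the 3 with the fewest counts, and 2 of the 3 were those with *Xist*. Age, day of sorting, mitochondrial share, depth and the other differences between these libraries cannot be told apart, and their part in the division was not tested.

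**Figure D3:**
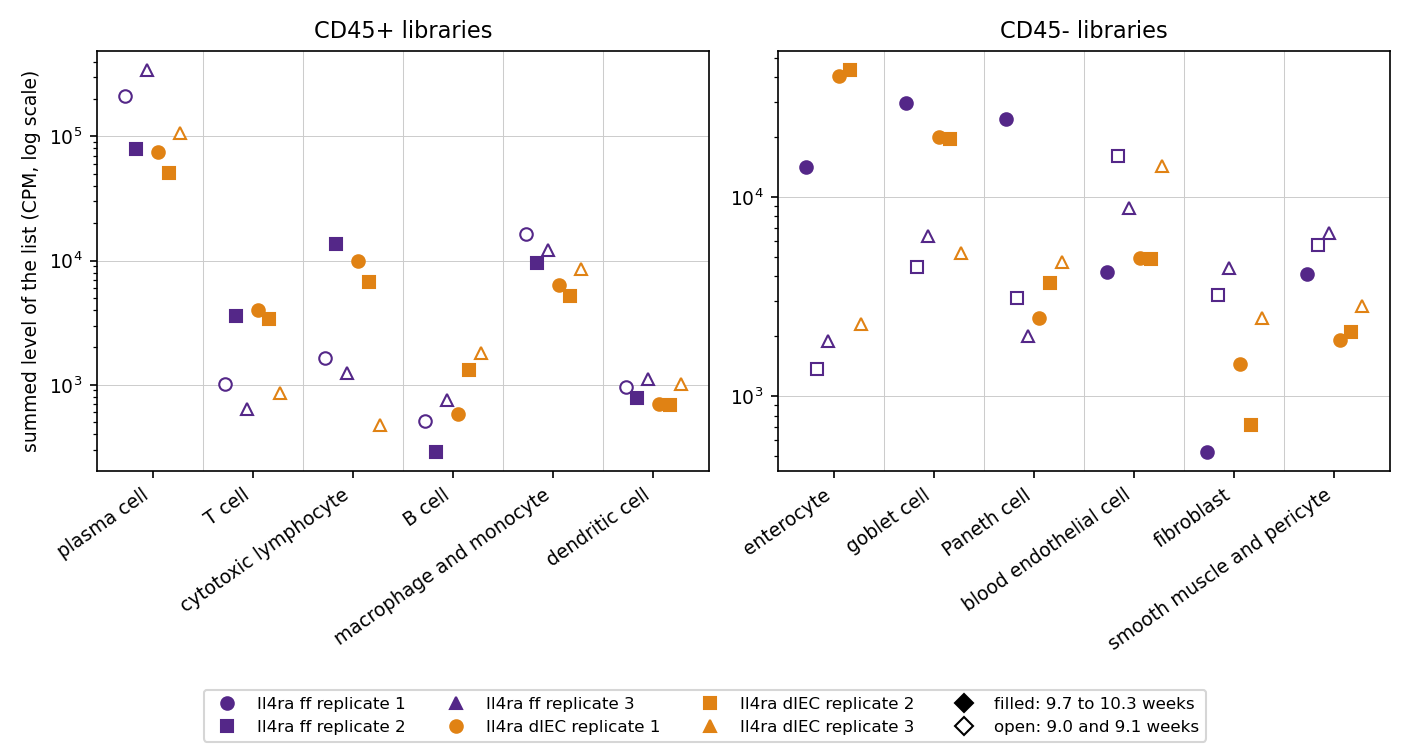
Summed level (CPM, log axis) of 6 marker lists in the CD45+ libraries (left) and 6 in the CD45- libraries (right), 1 point per library, colored by *Il4ra* genotype. Filled points are mice of 9.7 to 10.3 weeks and open points mice of 9.0 and 9.1 weeks. Filled points lie above open ones for T cell, cytotoxic, enterocyte and goblet cell genes and below them for plasma cell, blood endothelial and fibroblast genes.

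Most calls between the fractions were also made within each age. Within the 6 libraries of mice of 9.0 and 9.1 weeks 2095 genes were called higher in CD45+ and 2704 higher in CD45-, and within the 6 of older mice 2840 and 2879, with 59.6% and 68.6% of the genes called over all 12 libraries and tested there called again in the same direction. No gene was called with the opposite sign in either set. Both fits were added after the values were seen.

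Genes higher in 1 fraction were also counted in the other, at shares that differed between genes. As a percentage of the CD45+ median, the CD45- median was 0.154% for *Ptprc*, 0.137% for *Csf1r*, 0.197% for *C1qa*, 0.247% for *Cd79a* and 0.5999% for *Igha*. The genes of MHC class II, which present peptides to CD4 T cells, stood above that. *H2-Ab1* was at 241, 57.9 and 126 CPM in CD45- *Il4ra* ff and 630.3, 611 and 49.6 CPM in CD45- *Il4ra* dIEC libraries, and its CD45- median was 3.09% of the CD45+ median of 5937 CPM. For *Cd74*, the invariant chain, it was 4.56%, for the master regulator *Ciita* 2.41%, and for *H2-Aa* and *H2-Eb1* 2.05% and 1.79%. *H2-Oa*, the B cell member of the list, was at 0 in every CD45- library (16.7 to 86.01 CPM, median 35.98 in CD45+). The 3 CD45- libraries of the older mice had class II sums of 1369, 3457 and 3398 CPM and the other 3 of 337, 621 and 282 CPM. In the same order plasma cell genes summed to 2878, 1702 and 1139 CPM against 401, 515 and 329 CPM, and macrophage genes to 66.1, 95.4 and 76.7 CPM against 47.95, 25.9 and 38.2 CPM. Enterocyte, class II, plasma cell and macrophage sums divided the CD45- libraries the same way, as did cytotoxic and innate lymphoid sums. The T cell, B cell, dendritic cell and granulocyte and mast cell sums overlapped between the ages. Of all tested genes, 31.2% had the 3 older CD45- libraries all above or all below the 3 younger. All 9 genes of the class II list were called higher in CD45+, against 22.3% of all tested genes, with a median log2 fold change of 5.16 with bounds. The parts of epithelial cells and of leukocytes in these CD45- levels were not tested.

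In the other direction, the CD45+ median was 7.56% of the CD45- median for *Epcam*, 3.89% for *Vil1*, 2.43% for *Krt8*, 0.6798% for *Muc2*, the intestinal mucin, and 0.644% for *Plvap*. *Cdh1* (E-cadherin) was at 15.6 to 130.3 CPM (median 62.5) in CD45+ libraries, 17.9% of the CD45- median. Pan-epithelial genes summed to 384, 482 and 332 CPM in the 3 CD45+ libraries of older mice, those rich in cytotoxic genes, and to 105, 119.9 and 80.5 CPM in the 3 of younger mice. The parts of CD45- cells and of the leukocytes themselves in these CD45+ levels were not tested.

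Transcription factors known for each lineage divided between the fractions with few exceptions. All 13 intestinal epithelial factors were called higher in CD45- without overlap. Over all tested genes 23.7% were called higher in CD45- and 15.9% lay there without overlap. *Hnf4a*, a nuclear receptor of enterocyte genes, was at 189.98 to 635 CPM (median 319) against 1.33 to 21.3 CPM, median 9.63 (log2 fold change -5.07 ± 0.68, adjusted p = 0.0001397), *Cdx1* and *Cdx2*, which set intestinal identity, at medians of 122 and 87.6 CPM, and *Atoh1*, the switch to secretory cells, at 9.96 to 97.05 CPM (median 20.3). *Klf4* kept the highest level in CD45+ of these, 32.5 to 161 CPM (median 56.1) against 278 to 574 CPM, median 446 (log2 fold change -2.47 ± 0.39, adjusted p = 0.000400000). Of 13 hematopoietic factors 10 were called higher in CD45+, against 22.3% of all tested genes. *Spi1*, which encodes PU.1 of the myeloid and B lineages, was at 153 to 388 CPM (median 249.9) against 0 to 2.57 CPM, median 0.576 (log2 fold change 8.42 ± 1.09, adjusted p = 0.000103), and *Ikzf1* at 129.8 to 243 CPM (median 219.9) against 0 to 3.89 CPM (median 0.201). *Runx3*, of cytotoxic T cells and innate lymphoid cells, was at 74.5 to 319.5 CPM (median 220.5) and at 0 in every CD45- library, at least 11963-fold higher, and *Pou2f2* of B cells at least 3636-fold higher.

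Exceptions included *Myb*, *Ets1*, *Bcl11b* and *Fli1*, and their cause was not tested. *Myb*, a proto-oncogene of blood progenitors and of the crypt, was called higher in CD45-, at 32.1 to 50.1 CPM (median 42.9) against 2.39 to 17.2 CPM, median 4.94 (log2 fold change -2.81 ± 0.40, adjusted p = 0.000186). *Ets1* (133 to 901 CPM, median 536 against 81.9 to 318 CPM, median 139, adjusted p = 0.0603) and *Bcl11b* (13.3 to 146 CPM, median 70.2 against 15.6 to 46.2 CPM, median 24.7, adjusted p = 0.0607) were not called. Under the 28 alternatives to this fit, *Ets1* was called higher in CD45+ in 9 and *Bcl11b* in 5. Of 9 endothelial and stromal factors 7 were called higher in CD45-, against 23.7% of all tested genes. *Sox17* was at 29.5 to 125 CPM (median 50.4) and at 0 in every CD45+ library, at least 6552-fold higher. *Erg* was at 41.7 to 159 CPM (median 65.7) against 0.664 to 2.73 CPM (median 1.28). *Fli1*, the ETS factor that endothelium shares with blood cells, was called higher in CD45+, at 109 to 234 CPM (median 166) against 24.1 to 103 CPM, median 46.7 (log2 fold change 1.54 ± 0.37, adjusted p = 0.00558), and with total-count scaling it was not called (log2 fold change 1.12).

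**Figure D4:**
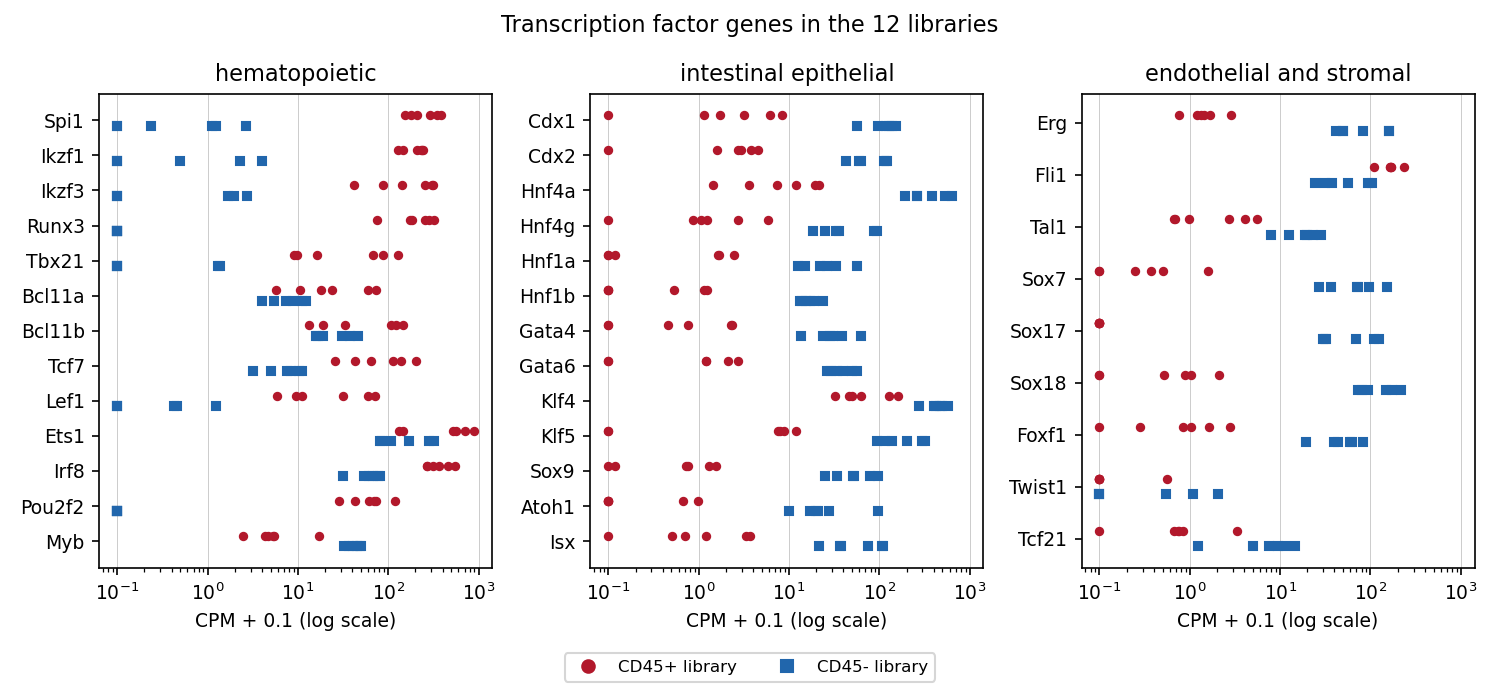
Level of each transcription factor gene in the 6 CD45+ (red circles) and 6 CD45- (blue squares) libraries, as CPM + 0.1 on a log axis, for hematopoietic, intestinal epithelial and endothelial and stromal factors. Points at the left edge are libraries at 0. Red points lie to the right of blue for most hematopoietic factors but to the left for *Myb*, and *Fli1* is the only endothelial factor with red points to the right.

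Promoters of the called genes were searched for short core sequences known for factors of either side, on both strands, in RefSeq windows of GRCm38.p6 from 250 bases before to 50 after the start of each gene, which 11657 of the 16265 tested symbols had. The PU.1 core GAGGAAGT was found in 159 of 2606 windows of genes higher in CD45+ (6.10%), in 57 of 2874 of genes higher in CD45- (1.98%), in 2.62% of those not called and in 3.28% of all 27025 windows. For the RUNX core TGTGGTTT the shares were 1.96%, 1.15%, 1.05% and 1.86% in that order, for the HNF4 core CAAAGTCCA 0.460%, 0.696%, 0.324% and 0.477%, and for the CDX2 core GCAATAAA 0.767%, 0.696%, 0.389% and 0.984%. In the 11657 windows of tested genes the shares were 3.24% for PU.1, 1.28% for RUNX, 0.446% for HNF4 and 0.549% for CDX2. Beside these, the share in genes of the factor's own fraction was higher for each of the 4 cores, but beside all windows it was lower for CDX2, and the CDX2 share was also higher in genes of CD45+ than of CD45-. These counts were not tested. The HNF4 and CDX2 cores were each in 20 windows of genes higher in CD45-. The 250 bases before the start are shown for 4 genes of the lists in which a core stood, with the core in capitals on whichever strand it was read. Each of the 4 was called on the side of the factor, and other list genes went against it. The PU.1 core also stood before list genes called higher in CD45-, *Eng*, *Isx* and *Olfm4* among them. The RUNX core likewise stood before list genes called higher in CD45-, *Dclk1* among them. The CDX2 core stood before *Crlf2*, *Tlr8* and *Xbp1*, called higher in CD45+. *C1qc* (chr4:136892915-136893164, minus strand) and *Cd5* (chr19:10738975-10739224, minus strand) hold the PU.1 core and were called higher in CD45+, *C1qc* at 531 to 2017 CPM (median 1059) and *Cd5* at 5.198 to 86.9 CPM (median 37.3).
C1qc: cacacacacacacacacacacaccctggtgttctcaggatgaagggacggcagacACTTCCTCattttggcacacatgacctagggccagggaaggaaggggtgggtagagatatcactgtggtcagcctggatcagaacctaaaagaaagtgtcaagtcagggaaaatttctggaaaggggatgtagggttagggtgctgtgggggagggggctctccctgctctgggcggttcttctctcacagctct
Cd5: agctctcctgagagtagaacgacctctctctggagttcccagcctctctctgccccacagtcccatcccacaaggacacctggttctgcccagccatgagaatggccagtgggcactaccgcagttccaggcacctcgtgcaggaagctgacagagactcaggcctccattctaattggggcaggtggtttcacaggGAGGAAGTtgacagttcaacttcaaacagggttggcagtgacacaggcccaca
*Alpi* (chr1:87101607-87101856, minus strand), the alkaline phosphatase of the brush border, holds the HNF4 core and *Sis* (chr3:72967864-72968113, minus strand), sucrase-isomaltase, the CDX2 core, and both were called higher in CD45-, *Alpi* at 18.2 to 383 CPM (median 101) and *Sis* at 72.2 to 365 CPM (median 137).
Alpi: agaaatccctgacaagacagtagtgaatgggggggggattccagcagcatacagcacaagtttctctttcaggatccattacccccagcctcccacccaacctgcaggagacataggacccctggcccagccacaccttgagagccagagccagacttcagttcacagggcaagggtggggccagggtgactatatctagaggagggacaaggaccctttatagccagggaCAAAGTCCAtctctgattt
Sis: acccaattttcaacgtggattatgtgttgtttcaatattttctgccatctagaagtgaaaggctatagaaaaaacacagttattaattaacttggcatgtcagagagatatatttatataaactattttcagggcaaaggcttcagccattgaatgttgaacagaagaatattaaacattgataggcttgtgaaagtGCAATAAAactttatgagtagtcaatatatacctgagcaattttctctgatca
A match describes the letters of the window and is neither a site nor a cause.

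LUBAC was found in both fractions. *Rbck1* (ENSMUSG00000027466.15, chromosome 2, 152316334 to 152332653, minus strand) was at 122, 142 and 90.4 CPM in CD45+ *Il4ra* ff and 161, 157 and 134 CPM in CD45+ *Il4ra* dIEC libraries, and at 71.7 to 109 CPM (median 89.4) in CD45- libraries. The groups overlapped and the difference was small (log2 fold change 0.55 ± 0.17, adjusted p = 0.0206). The other subunits *Rnf31*, the catalytic HOIP (log2 fold change -0.07 ± 0.21, adjusted p = 0.816), and *Sharpin* (log2 fold change 0.35 ± 0.23, adjusted p = 0.2296) were not called. On TPM, which scales counts by gene length and by the library total, the mean level was 44.5 TPM in CD45+ and 57.1 TPM in CD45- for *Rbck1*, 13.7 and 27.1 TPM for *Rnf31* and 13.9 and 18.99 TPM for *Sharpin*, so *Rbck1* was the highest of the 3 subunits in each fraction. TPM carries no TMM factor, and the mean of *Rbck1* in TPM was lower in CD45+, while its log2 fold change with total-count scaling was 0.19 and was not called. The call was also lost without CD45+ *Il4ra* ff replicate 2 (0.49), CD45- *Il4ra* ff replicate 3 (0.50) or CD45- *Il4ra* dIEC replicate 3 (0.48). The deubiquitinases were the members most divided. *Otulin*, which cuts linear chains, was at 30.98 to 73.1 CPM (median 50.2) against 5.25 to 19.2 CPM, median 11.4 (log2 fold change 2.03 ± 0.32, adjusted p = 0.000382), *Cyld* at 94.6 to 131 CPM (median 104) against 16.3 to 27.02 CPM, median 22.3 (log2 fold change 2.32 ± 0.18, adjusted p = 3.402e-06), and *Tnfaip3*, which encodes A20, at 247 to 1003 CPM (median 835) against 34.3 to 283 CPM, median 110.2 (log2 fold change 2.52 ± 0.55, adjusted p = 0.00317). With *Nfkb1* (log2 fold change 0.85 ± 0.16, adjusted p = 0.00125), 5 of 10 genes of the list were called higher in CD45+ and none in CD45-, beside 22.3% and 23.7% of all tested genes. With total-count scaling *Nfkb1* was not called (log2 fold change 0.45), and the 3 deubiquitinases were.

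Of 11 genes of the TNF receptor and cell death list 3 were called higher in CD45+ and none in CD45-, a share near the 22.3% of all tested genes for CD45+. *Tnf* was at 41.8 to 158 CPM (median 59.4) against 1.21 to 8.92 CPM, median 1.91 (log2 fold change 4.59 ± 0.59, adjusted p = 9.76e-05), *Fasl* at 2.93 to 51.4 CPM (median 21.5) and at 0 in every CD45- library, at least 1302-fold higher, and *Tnfrsf1b*, the second TNF receptor, at 198 to 279 CPM (median 241) against 16.4 to 100.5 CPM, median 49.3 (log2 fold change 2.26 ± 0.43, adjusted p = 0.00133). The broad receptor *Tnfrsf1a* was at 122 to 233 CPM (median 159) in CD45+ and 128 to 225 CPM (median 185) in CD45- libraries (log2 fold change -0.16 ± 0.18, adjusted p = 0.503). *Casp8*, *Fadd*, *Cflar*, *Ripk1*, *Ripk3*, *Mlkl* and *Fas*, which carry or restrain the death signal, were likewise not called, with log2 fold changes from -0.87 to 0.58. Toll-like receptors were more one-sided, with 11 of 13 tested genes of the list called higher in CD45+. *Tlr9* and *Tlr13* were at 54.99 to 87.7 CPM (median 72.02) and 45.9 to 147 CPM (median 81.4) and at 0 in every CD45- library, at least 3976-fold and 5098-fold higher. *Tlr3* (10.8 to 22.5 CPM, median 13.6 against 8.13 to 23.7 CPM, median 15.4) and *Tlr4* (5.604 to 33.5 CPM, median 20.1 against 0 to 20.98 CPM, median 7.74) were not called, and *Myd88*, the adaptor of most of them, was (log2 fold change 1.22 ± 0.17, adjusted p = 0.000194).

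Genes of the IL-4 and IL-13 receptors were called higher in CD45+ in 7 of 9 tested, against 22.3% of all tested genes. *Il4ra* (ENSMUSG00000030748.9, chromosome 7, 125552120 to 125579474, plus strand) was at 107, 119 and 271 CPM in CD45+ *Il4ra* ff and 185, 243 and 289 CPM in CD45+ *Il4ra* dIEC libraries. In CD45- libraries it was at 54.8, 154 and 78.4 CPM in *Il4ra* ff and 44.5, 52.03 and 119 CPM in *Il4ra* dIEC (log2 fold change 1.26 ± 0.38, adjusted p = 0.0176 between the fractions). Counts over the whole gene do not check the deletion of a floxed part in epithelial cells, and the genotypes overlapped in both fractions. *Il2rg*, the common gamma chain of the receptor on blood cells, was at 112 to 152 CPM (median 126) against 11.98 to 29.2 CPM, median 19.3 (log2 fold change 2.74 ± 0.24, adjusted p = 6.23e-06), while *Il13ra1*, its partner on other cells, was not called (20.2 to 81.8 CPM, median 42.1 against 31.5 to 62.2 CPM, median 39.4, log2 fold change 0.05 ± 0.33, adjusted p = 0.917). *Jak1* (log2 fold change 0.78 ± 0.30, adjusted p = 0.0495), *Tyk2* (log2 fold change 1.26 ± 0.19, adjusted p = 0.000258) and *Stat6* (log2 fold change 0.51 ± 0.13, adjusted p = 0.00728) were called higher in CD45+ by small amounts, and with total-count scaling *Il4ra*, *Jak1* and *Stat6* were not called (log2 fold changes of 0.78, 0.41 and 0.11). The call of *Il4ra* was lost without CD45+ *Il4ra* ff replicate 3 (1.07) and that of *Jak1* in 8 of the 12 fits that left out 1 library (0.62 to 1.00). *Jak3* was not called (adjusted p = 0.0644). *Il4* was at 1.62 to 3.97 CPM (median 2.56) and *Il13* at 0 to 3.398 CPM (median 1.55) in CD45+ libraries, both at 0 in every CD45- library, at least 147-fold and 92.7-fold higher. *Il13ra2* had no count in the 12 libraries.

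Alarmins of the barrier were low. *Il33* was called higher in CD45-, at 4.63 to 32.2 CPM (median 12.3) against 0 to 0.669 CPM, median 0 (log2 fold change -7.66 ± 1.31, adjusted p = 0.000657), and its receptor *Il1rl1* was at 4.35 to 11.9 CPM (median 6.39) in CD45+ and at 0 in every CD45- library, at least 394-fold higher. *Tslp* was at 0 to 1.75 CPM (median 0.654) in CD45- libraries and was not called, its receptor *Crlf2* at 67.7 to 121 CPM (median 92.2) against 16.7 to 27.3 CPM, median 20.8 (log2 fold change 2.12 ± 0.19, adjusted p = 8.704e-06). *Il25* had no count in the 12 libraries, while the receptor genes *Il17rb* (1.47 to 15.1 CPM, median 8.55 against 0 to 2.75 CPM, median 0.134, log2 fold change 4.16 ± 1.28, adjusted p = 0.0191) and *Il17ra* (56.8 to 137 CPM, median 77.9 against 6.87 to 20.5 CPM, median 10.7, log2 fold change 3.01 ± 0.32, adjusted p = 2.52e-05) were called higher in CD45+. *Il18* was not called and its receptor *Il18r1* was, at 4.84 to 50.3 CPM (median 18.3) against 0.367 to 4.503 CPM, median 1.11 (log2 fold change 3.72 ± 0.51, adjusted p = 0.000139).

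Ligands and receptors fell on opposite sides for many pairs. Of 36 pairs written down with the receptor's known partner, 9 had the ligand called higher in CD45- and the receptor in CD45+, 6 the reverse, and 4 had both in CD45+. No pair had both called higher in CD45-. Over all tested genes 22.3% were called higher in CD45+ and 23.7% higher in CD45-. Homing signals made up much of the first set. *Ccl25*, the chemokine of small intestinal epithelium, was at 51.2 to 318 CPM (median 91.1) against 1.18 to 9.47 CPM, median 6.46 (log2 fold change -4.45 ± 0.67, adjusted p = 0.0003004), and its receptor *Ccr9* at 49.9 to 174 CPM (median 147) against 0 to 2.25 CPM, median 0 (log2 fold change 8.94 ± 1.34, adjusted p = 0.000277). *Madcam1*, the addressin of mucosal vessels, was at 59.3 to 497 CPM (median 224) against 0.0168 to 3.18 CPM, median 0.954 (log2 fold change -7.51 ± 0.96, adjusted p = 9.69e-05), and *Itgb7*, of its integrin ligand, at 316 to 598 CPM (median 482) against 0.62003 to 6.38 CPM, median 2.55 (log2 fold change 7.34 ± 0.63, adjusted p = 6.48e-06). For *Cdh1* the partner *Itgae*, the CD103 integrin that holds lymphocytes in the epithelium, was at 71.6 to 975 CPM (median 422) against 0 to 1.36 CPM, median 0.186 (log2 fold change 10.08 ± 1.52, adjusted p = 0.000293). *Ccl28* and *Ccr10*, *Cxcl12* and *Cxcr4*, *Cx3cl1* and *Cx3cr1*, *Il34* and *Csf1r*, *Kitl* and *Kit*, and *Il33* and *Il1rl1* were the other 6 pairs. With total-count scaling *Kit* was not called (log2 fold change 1.24).

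In the reverse set leukocytes held the ligand. *Il17a* was at 1.37 to 98.9 CPM (median 37.9) and at 0 in every CD45- library, at least 2238-fold higher, and *Il17rc* at 41.3 to 242 CPM (median 72.9) against 0 to 2.49 CPM, median 1.99 (log2 fold change -6.03 ± 1.14, adjusted p = 0.00132). *Il22* was at 3.98 to 72.8 CPM (median 15.5) against 0 to 7.68 CPM, median 0 (log2 fold change 4.83 ± 1.45, adjusted p = 0.01704), and its receptor chain *Il22ra1* at 4.85 to 66.8 CPM (median 22.6) against 0 to 1.69 CPM, median 0 (log2 fold change -5.62 ± 1.51, adjusted p = 0.0101). *Osm* was at 9.696 to 53.9 CPM (median 27.6) and at 0 in CD45- libraries, at least 1549-fold higher, and *Osmr* at 39.8 to 172 CPM (median 73.3) against 0 to 1.54 CPM, median 0.416 (log2 fold change -7.49 ± 1.06, adjusted p = 0.000189). These are cytokines that act on epithelium and stroma. *Jchain* with *Pigr*, which carries dimeric IgA across the epithelium (589 to 2096 CPM, median 1033 against 6.405 to 68.2 CPM, median 22.6, log2 fold change -5.30 ± 0.66, adjusted p = 8.04e-05), and *Ltb* and *Lta* with *Ltbr* (log2 fold change -1.14 ± 0.18, adjusted p = 0.0003797) completed the set. *Lta* lay at the threshold (log2 fold change 3.82 ± 1.46, adjusted p = 0.04999), and its call was lost in 10 of the 12 fits that left out 1 library (3.42 to 5.47) and with total-count scaling (3.51). *Ifng*, *Il13*, *Tnf* and *Tgfb1* were called higher in CD45+ with receptors that were not called. *Tgfb1* was at 323 to 486 CPM (median 353) against 36.5 to 114 CPM (median 59.7) and *Tgfbr2* at 215 to 319 CPM (median 255) against 146 to 734 CPM (median 330.4). *Cxcl16* with *Cxcr6*, *Cxcl13* with *Cxcr5*, *Flt3l* with *Flt3* and *Tnfsf13b* with *Tnfrsf13b* had both genes higher in CD45+, but *Flt3l* lost its call in 6 of the 12 fits without 1 library (1.25 to 1.77), and with total-count scaling neither *Flt3l* (1.16) nor *Tnfsf13b* (1.12) was called. Ligands that were not called included *Il7* (0 to 2.14 CPM, median 0.462), *Il15* (5.097 to 13.4 CPM, median 9.62), *Ccl20* (0 to 3.88 CPM, median 0.458) and *Ccl21a* (0 to 7.78 CPM, median 3.57), while their receptor genes *Il7r*, *Il2rb*, *Ccr6* and *Ccr7* were called higher in CD45+.

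**Figure D5:**
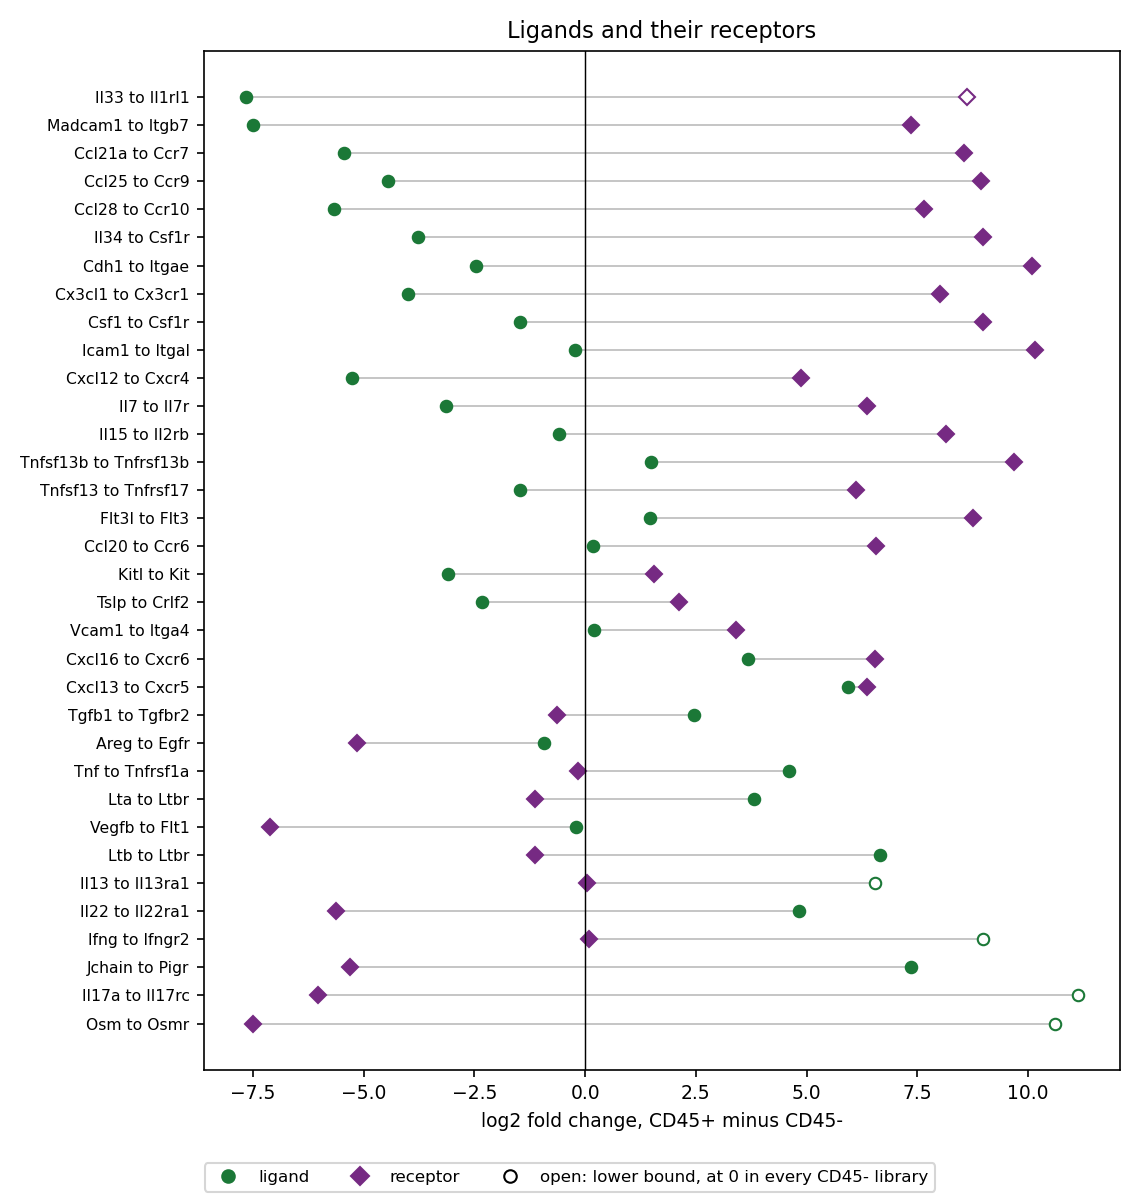
Log2 fold change (CD45+ minus CD45-) of each ligand (green circle) and its receptor (purple diamond) for the 34 pairs with both genes tested, ordered by the difference within the pair. Open symbols are lower bounds for genes at 0 in every CD45- library. Pairs at the top have the ligand in CD45- and the receptor in CD45+, such as *Il33* and *Il1rl1*, and those at the bottom the reverse, such as *Osm* and *Osmr*.

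Several families leaned to 1 side, beside 22.3% of all tested genes called higher in CD45+ and 23.7% called higher in CD45-. Among tested genes 8 chemokine receptors, 4 interleukin receptors, 11 interleukins and 1 integrin were at 0 in a whole fraction. They entered the test by the other fraction alone, so their part of the counts is no finding. Chemokine receptors were called higher in CD45+ in 18 of 22 tested, and the 3 higher in CD45- included the scavengers *Ackr1* (19.4 to 148 CPM, median 67.3 against 0 to 0.256 CPM, median 0) and *Ackr3* (65.9 to 221 CPM, median 114 against 2.06 to 13.1 CPM, median 3.67). Interleukin receptors had 23 of 34 higher in CD45+ and 4 higher in CD45-, among them *Il1r1* (log2 fold change -2.87 ± 0.51, adjusted p = 0.000832). Interleukins had 13 of 23 higher in CD45+, led in level by *Il1b* (174 to 1117 CPM, median 248 against 0 to 1.75 CPM, median 0) and *Il16* (117 to 198 CPM, median 171 against 2.83 to 8.13 CPM, median 3.97, log2 fold change 5.18 ± 0.30, adjusted p = 5.68e-07). Integrins were even, with 11 of 26 higher in CD45+ and 11 in CD45-. *Itgb4*, of the hemidesmosome, was at 236 to 371 CPM (median 278) against 0 to 8.23 CPM, median 1.63 (log2 fold change -7.10 ± 1.07, adjusted p = 0.000293), and the broadly used *Itgb1* at 185 to 427 CPM (median 303) against 86.9 to 195 CPM, median 128 (log2 fold change -1.18 ± 0.27, adjusted p = 0.00434).

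Structural families leaned to CD45-, where 23.7% of all tested genes were called higher, against 22.3% in CD45+. Collagen chains had 24 of 32 tested genes called higher there, with the basement membrane chains *Col4a1* and *Col4a2* at 409 to 2475 CPM (median 1150.2) and 337 to 1986 CPM (median 921). Claudins had 9 of 11, keratins 9 of 13 and Hox genes, which keep the position along the gut, 15 of 22 with no Hox gene higher in CD45+. *Hoxa7* and *Hoxb6* led by level, at 9.88 to 33.04 CPM (median 22.3) and 9.02 to 23.2 CPM (median 15.5). Single members went the other way. *Krt80* was at 2.36 to 24.5 CPM (median 14.5) in CD45+ against 0 to 1.79 CPM, median 0.609 (log2 fold change 4.51 ± 0.81, adjusted p = 0.000893), *Col11a2* at 2.995 to 14.02 CPM (median 5.04) against 0 to 2.099 CPM, median 1.22 (log2 fold change 2.53 ± 0.79, adjusted p = 0.0201, 2.10 and not called without CD45+ *Il4ra* dIEC replicate 3, and 2.08 and not called with total-count scaling) and *Cldn1* at 0 to 3.94 CPM (median 2.97) against 0 to 0.179 CPM, median 0 (log2 fold change 6.46 ± 1.72, adjusted p = 0.00919). All 14 genes of the tight junction list were called higher in CD45-, from *Marveld2* (log2 fold change -1.31 ± 0.28, adjusted p = 0.00271) to *Cldn5*, the claudin of endothelium (log2 fold change -6.76 ± 1.04, adjusted p = 0.000338). Of 8 tested genes of secretory defense 7 were, with *Reg3b* at 167 to 1810.4 CPM (median 715) and *Reg3g* at 80.8 to 1027 CPM (median 404), and *Lcn2* was not (adjusted p = 0.786). Solute carriers had 38 of 276 higher in CD45+ (13.8%) and 107 higher in CD45- (38.8%). *Slc15a3* and *Slc11a1*, of the lysosomes of phagocytes, led in CD45+ at 115 to 292 CPM (median 155) and 75.8 to 219 CPM (median 142), and the mitochondrial carriers *Slc25a5* and *Slc25a3* in CD45- at 275 to 766 CPM (median 428) and 242 to 442 CPM (median 303). The difference of *Slc25a5* was small (log2 fold change -0.70 ± 0.26, adjusted p = 0.0475) and its call was lost in 9 of the 12 fits without 1 library (-0.87 to -0.54).

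Of 12 cell division genes 2 were called higher in CD45+ and 1 higher in CD45-, beside 22.3% and 23.7% of all tested genes. *Mki67* was at 21.99 to 73.9 CPM (median 30.8) in CD45+ and 29.8 to 66.5 CPM (median 51.9) in CD45- libraries (log2 fold change -0.52 ± 0.31, adjusted p = 0.195) and *Mcm6*, of the replicative helicase, at 55.5 to 85.3 CPM (median 67.7) against 37.1 to 95.3 CPM (median 74.7). *Pcna* (log2 fold change 0.50 ± 0.17, adjusted p = 0.0323) and *Mcm4* (log2 fold change 0.82 ± 0.23, adjusted p = 0.0113) were called higher in CD45+, and *Ccnb1*, the mitotic cyclin, higher in CD45- (log2 fold change -1.45 ± 0.33, adjusted p = 0.00415). With total-count scaling *Pcna* (0.13) and *Mcm4* (0.43) were not called, and *Pcna* lost its call in 8 of the 12 fits without 1 library (0.43 to 0.59). Immediate-early and heat-shock genes, which are known to rise when tissue is dissociated, were high in both fractions, with sums of 6977 to 23594 CPM (median 8785) in CD45+ and 4103 to 17996 CPM (median 9237) in CD45-. *Fos* was at 787 to 3795 CPM (median 1748) against 549 to 3399 CPM, median 1220.1 (log2 fold change 0.23 ± 0.49, adjusted p = 0.734), and *Junb* was the member called (log2 fold change 1.46 ± 0.36, adjusted p = 0.005597), though not with total-count scaling (0.97). A p that misses the threshold does not show that levels were equal.

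Few genes had a difference between the fractions that depended on *Il4ra* genotype by the test of the difference itself. Of 17063 genes, 3 passed a test of the fraction by *Il4ra* interaction (0.0176%), and 1240 had an unadjusted p under 0.05. DESeq2 called 182. The 3 were each at 0 in all libraries of a group. *Ndufa4l2*, of a mitochondrial protein, was at 41.0 to 53.7 CPM in CD45- *Il4ra* ff and 18.03 to 30.1 CPM in CD45- *Il4ra* dIEC, and at 0 and 1.30 to 1.73 CPM in CD45+ libraries of these genotypes (adjusted p = 0.00224). *Gnao1*, a G protein subunit, showed the same order, with 35.4 to 46.7 and 18.6 to 24.4 CPM in CD45- and 0 and 0.489 to 1.11 CPM in CD45+ (adjusted p = 0.0164). *Dok3*, an adaptor of immune receptors, was at 67.5 to 99.1 and 66.2 to 154 CPM in CD45+, and at 1.22 to 2.81 and 0 CPM in CD45- *Il4ra* ff and *Il4ra* dIEC (adjusted p = 0.0315). Leaving out 1 library at a time gave 1 to 21 genes, with 21 without CD45- *Il4ra* dIEC replicate 3, 16 without CD45+ *Il4ra* ff replicate 2, 6 without CD45+ *Il4ra* dIEC replicate 1, 5 without CD45- *Il4ra* dIEC replicate 2 and 1 without CD45- *Il4ra* ff replicate 3.

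*Hoil1*-/- mice, which by the study's account still make an N-terminal part of HOIL1 at a reduced level, carried the same *Il4raflox/flox* alleles with or without *Vil1cre* and gave the same contrast in another genotype. The study left out 3 of their 12 libraries as outliers. Over the remaining 21 libraries of the series, 7 of 18778 genes (0.0373%) passed a test of the fraction by *Hoil1* interaction, and 1037 had an unadjusted p under 0.05. DESeq2 called 263, and edgeR called 1 over all 24 libraries. In *Hoil1*-/- mice alone, with 4 CD45+ and 5 CD45- libraries, 5743 of 15867 tested genes were called in either direction (36.2%). Of the 7219 genes called in *Hoil1*+/+ and tested in both, 4960 were also called in *Hoil1*-/- with the same sign, which is 68.7% of the former and 87.5% of the 5671 calls in *Hoil1*-/- tested in both, and none was called with the opposite sign. The *Hoil1*+/+ and *Hoil1*-/- comparisons share no library. Of genes not called in *Hoil1*+/+, 74.0% had the same sign in *Hoil1*-/-, against 98.7% of those called.

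Of the 7 genes, *Lrmp*, a membrane protein of lymphocytes and tuft cells, and *Limd2* differed in level in 1 group. *Lrmp* was at 62.9 and 111 CPM in the CD45- libraries of *Hoil1*-/- *Il4ra* ff mice, and at 1.53 to 2.52 CPM in those of *Hoil1*+/+ *Il4ra* ff and 2.82 to 3.33 CPM in those of *Hoil1*-/- *Il4ra* dIEC mice (adjusted p = 0.0170). *Limd2* was at 50.9 and 63.3 CPM in the same 2 libraries and at 3.54 to 9.39 CPM in the 6 CD45- libraries of *Hoil1*+/+ mice (adjusted p = 0.0488). *Dennd1c*, at 1.83 and 2.00 CPM in those 2 libraries and up to 0.126 CPM in CD45- *Hoil1*+/+ libraries, went with them (adjusted p = 0.0214). *Itgb3*, the beta chain of the platelet and endothelial integrin, was at 21.5 to 62.9 CPM in CD45+ *Hoil1*+/+ and 50.0 to 196 CPM in CD45+ *Hoil1*-/- libraries, and at 1.89 and 2.00 CPM in the same 2 CD45- libraries (adjusted p = 0.0488). *Gnao1* and *Aasdh* were at 0 in 1 whole group each, with adjusted p of 0.00764 and 0.0488. The part of CD45+ cells in the levels of *Lrmp*, *Limd2* and *Dennd1c* in those 2 libraries was not tested.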

How the data were processed

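RNA of 24 sorted ileum libraries was sequenced by the authors, and the deposited file holds whole-number read counts per gene. The submitters' processing notes name STAR, featureCounts and the mm10 (GRCm38) build, with versions not given in the sources used here. Counts were used as deposited, with 1 table for all libraries and 38872 of 39056 gene IDs matched to GENCODE M21 for names and positions. Genes were kept by filterByExpr (minimum count 10, minimum total 15), scaled by TMM and tested with edgeR 4.0.16 (R 4.3.3, quasi-likelihood, two-sided, Benjamini-Hochberg threshold 0.05). The study analysed each fraction apart, so this contrast is not in its methods. CPM use TMM-scaled library sizes. Alternatives used DESeq2 1.42.0 and limma 3.58.1, and permutation tests scipy 1.17.1. Depth per library and the level of 3 counts are given above, and cover counting error only. The labels name no animals, so libraries were treated as independent although mice may be shared between the fractions, and p-values measure the spread between these samples.

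The comparison, members and gene lists were chosen with earlier results of these data known. Genes named were *Ptprc*, *Epcam*, *Rbck1*, *Il4ra* and *Vil1*, the 3 tested members with the highest mean CPM of each marker list and members against its direction, any gene of the pathway lists and pairs, the 10 per direction with the smallest p, no overlap and a mean CPM of at least 50, the 2 per direction with the highest mean CPM in each family, and the interaction genes, some of which are not reported here. Named outside this, after their values were seen, were *Alas2*, *Alpi*, *Apoa4*, *C1qc*, *Cd4*, *Cd5*, *Cd209a*, *Dcn*, *Elavl4*, *Eng*, *Epx*, *Gata3*, *Klrg1*, *Muc2*, *Ncr1*, *S100a8*, *S100b*, *Sh2d6*, *Siglecf*, *Sis*, *Slc10a2*, *Sox10* and *Xist*. Families were taken by gene symbol, and their patterns were narrowed after genes of other families had been seen among them. All columns of the table belong to labelled samples.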

Additional observations from a re-analysis of the deposited data

Results flagged for a closer look

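Of 427 values of 6 libraries examined (sums of lists and genes named, with at least 3 counts in each library), 16 had a lowest or highest library far from the other 5 by Dixon's test on the log2 scale, where chance gives about 1 in 20. CD45- *Il4ra* ff replicate 3 held 5 of them. Its erythroid genes summed to 1493 CPM against 3729 to 5425 CPM in the other CD45- libraries, with *Hba-a1* at 333 CPM (842 to 1262 CPM in the others) and *Hbb-bs* at 921 CPM (2206 to 3162 CPM). In the same library tuft cell genes were high, at 63.6 CPM against 26.0 to 35.2 CPM. The sum of dendritic cell genes was low there, at 55.8 CPM against 83.7 to 103.9 CPM. Most of that sum came from *Irf8* (31.2 CPM) and *Zbtb46* (23.6 CPM), and *Zbtb46* was not called between the fractions. CD45- *Il4ra* ff replicate 1 had Paneth cell genes at 24769.9 CPM against 1999 to 4698 CPM, and *Itln1*, a lectin of Paneth and goblet cells, at 3284 CPM against 419 to 779 CPM.

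Among CD45+ libraries, *Il4ra* ff replicate 1 had the IL-4 and IL-13 receptor list at 718 CPM (960 to 1135 CPM in the others) and *Slc25a5* at 420.5 CPM (233 to 290 CPM). *Il4ra* ff replicate 3 had the TNF receptor and cell death list at 887 CPM (665 to 733 CPM) and *Tjp1* at 1.93 CPM (3.12 to 4.01 CPM). *Il4ra* ff replicate 2 had *Zbtb46* at 7.70 CPM (12.4 to 14.4 CPM). *Il4ra* dIEC replicate 3 had *Casp8* at 49.4 CPM (65.3 to 74.6 CPM) and *Mylk* at 5.499 CPM (8.34 to 9.93 CPM). In CD45- libraries *Cyth4* was at 1.00 CPM in *Il4ra* dIEC replicate 2 (2.20 to 3.05 CPM) and *Pcna* at 55.5 CPM in *Il4ra* dIEC replicate 1 (72.8 to 83.7 CPM).

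By edgeR's quasi-likelihood test of the difference itself, the contrast of the fractions differed between *Il4ra* ff and *Il4ra* dIEC mice for *Ndufa4l2* (adjusted p = 0.00224), *Gnao1* (adjusted p = 0.0164) and *Dok3* (adjusted p = 0.0315). Between *Hoil1*+/+ and *Hoil1*-/- mice it differed for *Gnao1* (adjusted p = 0.00764), *Lrmp* (adjusted p = 0.0170), *Dennd1c* (adjusted p = 0.0214) and *Limd2*, *Aasdh* and *Itgb3* (adjusted p = 0.0488 for each). The levels behind these are given with the interaction tests.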

How the results depend on the processing

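No gene called over the 12 libraries was called with the opposite sign under any of the 28 alternatives to the contrast of the fractions. Counts of genes higher in CD45+ moved most, from 3631 to 2101 with total counts without scaling factors, 1794 against a 2-fold change (glmTreat), 1930 in *Il4ra* ff and 2318 in *Il4ra* dIEC mice alone and 2095 in mice of 9.0 and 9.1 weeks. Those higher in CD45- moved from 3858 to 2287 in *Il4ra* ff and 2525 in *Il4ra* dIEC mice alone. Other settings (RLE factors, no filter, DESeq2, limma voom, immunoglobulin genes removed, no covariate, age as covariate, and, added after the data were seen, thinning to the smallest total, leaving out the 3 shallowest CD45- libraries, leaving out the 4 with *Xist* and mice of 9.7 to 10.3 weeks) stayed within 1.5 times. Leaving out 1 library gave 3124 to 3620 and 3692 to 3933 genes, with 89.3 to 94.1% of the calls kept. Of 237 genes named, 160 kept their side of the threshold throughout. The subsets hold fewer samples, and for the other settings the cause was not tested.

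The *Il4ra* interaction gave 3 genes with edgeR and 182 with DESeq2, and 1 to 21 without 1 library. The *Hoil1* interaction gave 7, 4 with RLE factors, 263 with DESeq2 and 1 over all 24 libraries, so the number of genes depends on the tool. Precision was limited by 3 libraries a group, by the depth of CD45- libraries and by mixtures of cells that differed within each fraction. No paired analysis was possible because the labels do not say which CD45+ and CD45- libraries came from the same mouse.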
